A study of Mus musculus with 4 samples.

Results

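Egfr, Fgfr1, Fgfr2, Fgfr3, Spry1, Spry2, Spry4, Dusp6, Etv4 and Etv5 are the receptors through which neural progenitors respond to EGF and FGF, together with genes whose transcription follows the ERK kinase cascade below those receptors. They were taken by gene name from the rows on chromosomes 1 to 19, which gave 10 genes of 55599 table entries, and all 10 passed the filter of a mean FPKM of at least 1 that left 12997 genes to be tested. The study profiled polyadenylated RNA of passage 3 neurospheres, floating clusters of neural stem and progenitor cells, grown from cortex of C57BL/6 embryos of embryonic day 12.5. It holds 2 libraries of wild type (WT) and 2 of LncBAR-KO (KO) cells, which lack the long noncoding RNA LncBAR. The sources used here do not state how the KO allele was made, the growth medium, or that the libraries came from different embryos or cultures. The p-values then reflect only how far these libraries differ, which may be technical variation.

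EGF and FGF receptors are receptor tyrosine kinases of the cell surface. Ligand binding brings adaptor proteins and RAS to the receptor, and RAS then switches on RAF, MEK and ERK in turn. Active ERK raises transcription of its own inhibitors, the Sprouty proteins and the phosphatase DUSP6, and of the ETS transcription factors ETV4 and ETV5, so that these RNAs are widely read as a record of pathway activity. Neurospheres are commonly grown in EGF and FGF2, which keep neural stem cells dividing, and Egfr itself appears on cortical progenitors as they mature toward a late, gliogenic state.

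The libraries held 17244057 to 18280445 counts, and the 10 genes together took 0.215% to 0.225% of them. No library was a copy of another: the counts of every pair differed by more than sampling noise, with chi-square values per degree of freedom between 6.05 and 13.3. The WT libraries held 36766 and 31563 counts of Xist and the KO libraries 7 and 4, while 4 Y-linked genes summed to 0 counts in each WT library and to 3962 and 4449 in KO, so that genotype and sex-chromosome content cannot be told apart in any comparison below. LncBAR itself was not analysed here. Among markers of neural stem cells and radial glia 8 of 8 were above a mean FPKM of 1, with a summed level of 2648 and 2756 FPKM in WT and 2847 and 2956 in KO. Fabp7 made up the largest part of that sum, with 1340 and 1397 FPKM in WT and 1482 and 1614 in KO, while over the 8 genes 4 log2 fold changes were positive, the median was 0.00 and none was called. Of the dorsal telencephalon markers, Emx2 and Lhx2 were above 1 FPKM, while Emx1, a defining gene of cortical progenitors, was nearly absent, with 1 to 6 counts per library. Oligodendrocyte lineage markers summed to 717 to 776 FPKM over the 4 libraries. Most of that sum was Olig1 (520 to 576) and Olig2 (164 to 178). Pdgfra (5.50 to 7.82), Cspg4 (10.2 to 13.6) and Sox10 (6.59 to 12.1) were far lower. Over these 5 genes 2 log2 fold changes were positive, the median was -0.16 and none was called. None of 4 endothelial, 4 microglial, 4 mesenchymal and 3 blood markers reached a mean FPKM of 1, and Cdh5, C1qa, Hbb-bt and Hba-a1 had 0 counts in every library.

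The upstream sequences of Spry1, Spry2 and Dusp6 are shown because these genes ranked the libraries alike, and that of Egfr because it ranked them differently. Each is the 250 bases before the transcription start in RefSeq (GRCm38.p6, the assembly called mm10), read 5′ to 3′, and ends at the base before the gene start of the deposited table. Capitals mark matches to CCGGAA, a core sequence bound by ETS factors, on either strand.
Spry1 upstream, chr3:37639697-37639946, plus strand: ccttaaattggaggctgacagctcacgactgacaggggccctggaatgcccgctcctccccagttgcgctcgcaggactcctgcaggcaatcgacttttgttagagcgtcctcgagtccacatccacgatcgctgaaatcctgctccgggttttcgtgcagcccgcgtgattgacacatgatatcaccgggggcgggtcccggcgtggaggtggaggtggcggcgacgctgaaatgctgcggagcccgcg
Spry2 upstream, chr14:105896820-105897069, minus strand: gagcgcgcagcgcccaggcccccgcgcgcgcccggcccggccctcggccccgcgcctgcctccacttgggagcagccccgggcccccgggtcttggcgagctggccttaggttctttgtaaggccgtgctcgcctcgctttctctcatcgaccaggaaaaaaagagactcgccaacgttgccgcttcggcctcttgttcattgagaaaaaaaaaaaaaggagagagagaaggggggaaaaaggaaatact
Dusp6 upstream, chr10:99262981-99263230, plus strand: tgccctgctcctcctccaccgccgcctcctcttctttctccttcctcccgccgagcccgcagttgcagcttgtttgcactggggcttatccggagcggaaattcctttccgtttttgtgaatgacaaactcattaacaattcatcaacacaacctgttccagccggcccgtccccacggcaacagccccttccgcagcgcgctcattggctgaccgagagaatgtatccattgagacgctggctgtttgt
Egfr upstream, chr11:16751953-16752202, plus strand: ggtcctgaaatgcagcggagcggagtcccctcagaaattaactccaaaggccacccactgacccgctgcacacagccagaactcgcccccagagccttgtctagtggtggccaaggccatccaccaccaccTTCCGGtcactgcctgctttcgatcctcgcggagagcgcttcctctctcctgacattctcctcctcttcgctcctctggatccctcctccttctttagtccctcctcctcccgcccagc

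CCGGAA was found in the Egfr window, 119 bases before the start, and not in those of Spry1, Spry2 or Dusp6. Of 32851 windows of this length, 12.0% hold it. No match to TGANTCA (bound by AP-1 factors, 6.75% of windows) or to TGACGTCA (the cyclic AMP response element, 1.55%) was found in these 4 windows. The Spry1 and Spry2 windows were alike in composition, each with 62.4% G and C and 23 CpG dinucleotides. Dusp6 had 56.4% and 16, and Egfr 60.8% and 11, against medians of 52.4% and 6 over all windows. Windows of Fgfr2, Fgfr3 and Etv5 were also in the reference and held none of the 3 motifs. Fgfr1 and Etv4 were not matched. Spry4 was not looked at, because windows on chromosome 18 were left out of the selection.

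Levels spanned more than an order of magnitude between the ETS factor Etv5 and the receptor Fgfr2. Genes were set side by side by deposited FPKM, which is per length of all exons of a gene together, not of a single transcript. The order by mean over the 4 libraries was Etv5 (116), Spry2 (77.1), Egfr (52.4), Spry1 (48.5), Etv4 (36.6), Dusp6 (31.6), Spry4 (28.3), Fgfr1 (23.7), Fgfr3 (22.3) and Fgfr2 (7.97). The ranges over the 4 libraries overlapped for the neighbours Egfr and Spry1, Dusp6 and Spry4, and Fgfr1 and Fgfr3, which therefore did not differ beyond their spread. For the other neighbours in the order the ranges were apart. Etv5 lay above 97.4% of all tested genes and Egfr above 93.2%, while Fgfr2 lay near the middle of the distribution, above 52.0%.

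**Figure D1:**
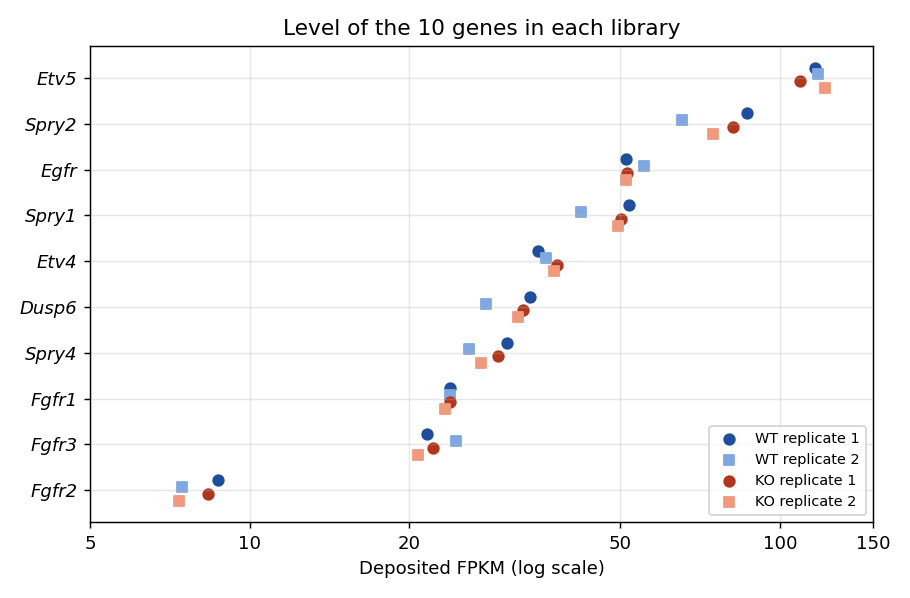
Deposited FPKM (log axis) of the 10 genes in each of the 4 libraries, ordered by mean. Etv5 is highest at 109 to 122 FPKM and Fgfr2 lowest at 7.36 to 8.73, and the light blue squares (WT replicate 2) lie left of the other points for Spry2, Spry1, Dusp6 and Spry4.

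The comparison of KO with WT asks whether loss of LncBAR changed the growth factor receptors or the output of the pathway below them. None of the 10 genes passed the test between genotypes. In edgeR's quasi-likelihood test with Benjamini-Hochberg adjustment over 12997 genes, 0 of 10 passed an adjusted p of 0.05, where 0.0692% of all tested genes (9 genes) did, and their adjusted p-values were 0.852 or above. At an unadjusted p under 0.05 the count was 0 of 10, against 5.92% of tested genes, the smallest being 0.246 for Fgfr3. DESeq2 and limma on log2(FPKM + 1) also called 0 of 10, where they called 0.0923% and 0.0308% of the genes. In edgeR without the genes of chromosomes X and Y, 1 of 12545 genes passed, and 0 of the 10. The median log2 fold change of the 10 genes was -0.01, beside 0.00 over all tested genes, with 5 positive and 5 negative. The 95% intervals of the fold changes all lay between 0.809-fold and 1.24-fold, though a p that misses the threshold does not show that the levels are equal.

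**Figure D2:**
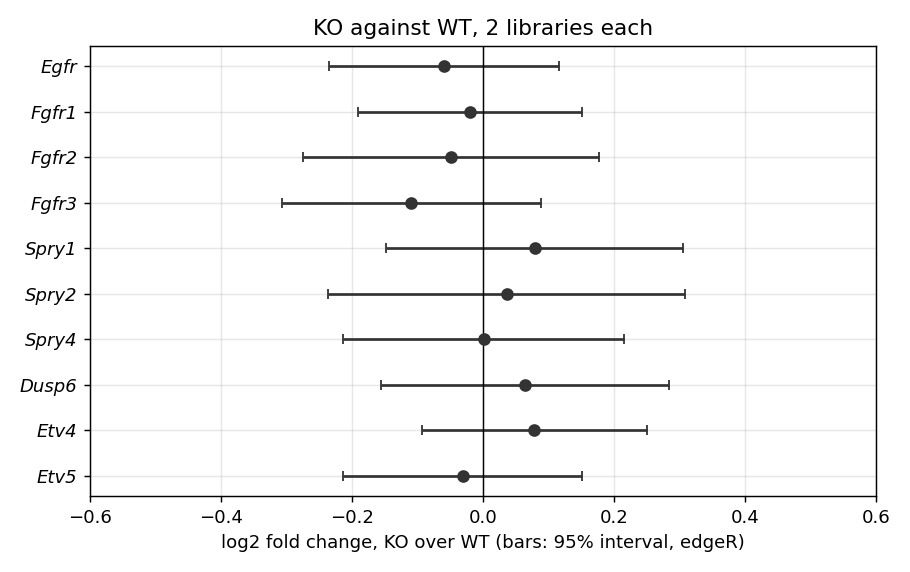
Log2 fold change of KO over WT for each gene, with 95% intervals from edgeR on 2 libraries per genotype. All 10 points lie between -0.11 and 0.08 and every interval includes 0.

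Egfr, the receptor for EGF, TGF-alpha, amphiregulin and HB-EGF (mm10 chromosome 11, 16752203 to 16918158, plus strand), was the most abundant of the 4 receptors. Its level was 51.3 and 55.4 FPKM in WT and 51.6 and 51.2 FPKM in KO, from 10501, 10938, 10236 and 10443 counts. WT replicate 2 was the high library and the other 3 lay within 1 FPKM of each other, so the genotypes overlapped. The log2 fold change was -0.06 ± 0.08 (SE), with a 95% interval from -0.24 to 0.12 (edgeR adjusted p = 0.916).

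Fgfr1, an FGF receptor made throughout the embryonic ventricular zone (chromosome 8, 25513654 to 25575718, plus strand), was the steadiest of the 10 genes. Its level was 23.9 and 23.8 FPKM in WT and 23.9 and 23.4 FPKM in KO, from 4259, 4100, 4130 and 4151 counts. All libraries lay within 1 FPKM, and the log2 fold change was -0.02 ± 0.08 (95% interval -0.19 to 0.15, edgeR adjusted p = 0.972). An antisense gene, Gm16159, with 8 to 17 counts per library, covers 1.66% of its exon length.

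Fgfr3, which marks ventricular zone progenitors and later astrocytes (chromosome 5, 33721674 to 33737068, plus strand), was at 21.6 and 24.5 FPKM in WT and 22.2 and 20.7 FPKM in KO, from 2798, 3053, 2780 and 2672 counts. WT replicate 2 was again the high library, and the KO values lay on both sides of WT replicate 1. Its log2 fold change, the most negative of the 10, was -0.11 ± 0.09 (95% interval -0.31 to 0.09, edgeR adjusted p = 0.852). The 4 astrocyte markers summed to 45.9 and 36.9 FPKM in WT and 39.5 and 30.3 in KO. Most of that sum was Aldh1l1, with 36.5 and 28.9 FPKM in WT and 30.4 and 24.1 in KO. Over the 4 markers 0 log2 fold changes were positive, the median was -0.22 and none was called. The part of these markers in the Fgfr3 values was not tested. In bulk RNA, fewer cells of a type and less RNA per cell cannot be told apart. The antisense gene G630022F23Rik covers 13.9% of the Fgfr3 exon length and was assigned 12 to 26 counts per library.

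Fgfr2, which shares ligands with Fgfr1 and Fgfr3 (chromosome 7, 130162451 to 133123350, minus strand), was the weakest receptor at 8.73 and 7.44 FPKM in WT and 8.34 and 7.36 FPKM in KO, from 1630, 1339, 1509 and 1368 counts. Replicate 1 of each genotype was high and replicate 2 low. The spread within a genotype was larger than the difference between them (log2 fold change -0.05 ± 0.10, 95% interval -0.28 to 0.18, edgeR adjusted p = 0.945). The annotated span of this gene is 2961 kb, against 4.26 to 166 kb for the other 9 genes, and covers or touches 69 other annotated genes, but only Ctbp2, on the same strand, shares exon sequence with it, over 314 bases or 3.04% of the Fgfr2 exon length. Ctbp2 had 1246 to 1339 counts per library.

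The mixture of FGF receptor RNAs differed little between genotypes. As shares of the summed FPKM of the 3 receptors, Fgfr1 made up 43.4% ± 0.895 in WT and 44.6% ± 1.05 in KO (SD, n = 2 libraries each). Fgfr3 made up 41.9% ± 2.84 in WT and 40.5% ± 0.324 in KO, and Fgfr2 14.7% ± 1.95 and 14.8% ± 0.731. Each difference was smaller than the larger of the SDs, apart from Fgfr1, whose 2 ranges (42.7% to 44.0% and 43.9% to 45.4%) overlapped.

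Spry1, Spry2 and Spry4 encode Sprouty proteins, which are made in response to ERK activity and restrain signalling between receptor and RAF. Spry2 (chromosome 14, 105891947 to 105896819, minus strand) was the most abundant. It had 86.6 and 65.2 FPKM in WT and 81.7 and 74.7 FPKM in KO. Its 3266 and 2373 counts in WT have exact 95% Poisson intervals of 3155 to 3380 and 2278 to 2470, which are far apart, so the gap between the WT libraries exceeded counting error (they cover that error alone, as the reads carry no molecular identifiers). Both KO libraries, with 2988 and 2807 counts, lay between the WT libraries, and the log2 fold change was 0.04 ± 0.12 (95% interval -0.24 to 0.31, edgeR adjusted p = 0.971).

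Spry1 (chromosome 3, 37639947 to 37644598, plus strand) followed the same order at a lower level, with 51.9 and 42.1 FPKM in WT and 50.3 and 49.5 FPKM in KO, from 2724, 2134, 2558 and 2590 counts. WT replicate 2 stood apart below the other libraries, and the log2 fold change was 0.08 ± 0.10 (95% interval -0.15 to 0.31, edgeR adjusted p = 0.912). An antisense gene, Gm42922, covers 24.4% of the Spry1 exon length, and as the kit kept no strand the reads of the pair there cannot be told apart. Gm42922 was assigned only 3 to 23 counts per library.

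Spry4 (chromosome 18, 38586247 to 38601415, minus strand) had 30.5 and 26.0 FPKM in WT and 29.5 and 27.3 FPKM in KO, from 2622, 2153, 2453 and 2339 counts. Both KO values again lay inside the WT range, and the log2 fold change was 0.00 ± 0.10 (95% interval -0.21 to 0.21). The proportions of the Sprouty RNAs differed little: Spry2 made up 50.1% ± 1.64 of their summed FPKM in WT and 50.0% ± 0.940 in KO, Spry1 31.1% ± 0.636 and 31.9% ± 1.09, and Spry4 18.8% ± 1.01 and 18.1% ± 0.150 (SD, n = 2 each).

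Dusp6 encodes a cytoplasmic phosphatase that removes the activating phosphates from ERK (chromosome 10, 99263231 to 99267489, plus strand). It had 33.8 and 27.9 FPKM in WT and 32.7 and 32.1 FPKM in KO, from 1914, 1522, 1796 and 1807 counts. WT replicate 2 was the low library once more, and the KO libraries nearly coincided. The log2 fold change was 0.06 ± 0.10 (95% interval -0.16 to 0.28, edgeR adjusted p = 0.928).

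Etv4 and Etv5 encode closely related ETS factors of the PEA3 group, induced by FGF signalling in many embryonic tissues. Etv4 (chromosome 11, 101769742 to 101785371, minus strand) had 34.9 and 36.2 FPKM in WT and 37.9 and 37.5 FPKM in KO, from 1959, 1957, 2062 and 2093 counts. It was the only one of the 10 genes whose genotypes did not overlap, higher in KO, whereas 36.8% of all tested genes had groups that did not overlap in one direction or the other. Its log2 fold change was 0.08 ± 0.08 (95% interval -0.09 to 0.25, edgeR adjusted p = 0.885).

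Etv5 (chromosome 16, 22381309 to 22439719, minus strand) had 117 and 118 FPKM in WT and 109 and 122 FPKM in KO, from 8652, 8431, 7831 and 8985 counts. The KO libraries enclosed the WT libraries, and the log2 fold change was -0.03 ± 0.08 (95% interval -0.21 to 0.15, edgeR adjusted p = 0.963). Etv5 exceeded Etv4 by 3.30 ± 0.0580 times in WT and 3.06 ± 0.265 times in KO (ratio of FPKM, SD, n = 2 each). The difference was smaller than the SD of the KO libraries. The single ratios were 3.34 and 3.26 in WT and 2.87 and 3.25 in KO. They did not overlap, with WT replicate 2 and KO replicate 2 nearly equal, and the ratio was not tested.

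Spry1, Spry2, Spry4 and Dusp6, the inhibitors made in response to ERK activity, ranked the 4 libraries alike: WT replicate 1 was highest, then KO replicate 1, then KO replicate 2, and WT replicate 2 was lowest. These 4 genes were grouped after their values were seen, so the values that follow are a description without a test. Relative to the mean of the 4 libraries, their median log2 CPM (counts scaled by the TMM library size) deviated by -0.19 in WT replicate 2 and by 0.11 in WT replicate 1. The deviations were 0.06 in KO replicate 1 and -0.02 in KO replicate 2.

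The gap between the WT libraries was 0.41 in log2 CPM for Spry2, 0.31 for Spry1, 0.28 for Dusp6 and 0.24 for Spry4, higher in WT replicate 1 each time. The gap between the KO libraries was smaller for each of them, 0.14, 0.03, 0.04 and 0.12 in the same order. Fgfr2 was also higher in WT replicate 1, by 0.24, as large as the gap of Spry4, and its gap between the KO libraries was 0.19. Etv4 and Etv5 did not share the pattern, with WT gaps of -0.04 and -0.01, and neither did Egfr and Fgfr3, which were higher in WT replicate 2 by 0.11 and 0.17.

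Without WT replicate 2 the log2 fold changes of the 4 inhibitors turned negative, at -0.07 for Spry1, -0.16 for Spry2, -0.11 for Spry4 and -0.07 for Dusp6, and without WT replicate 1 they were 0.24, 0.26, 0.12 and 0.21. None passed in either fit (edgeR adjusted p of 0.964 or above). In these fits the lone WT library is assumed to vary like the KO pair.

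**Figure D3:**
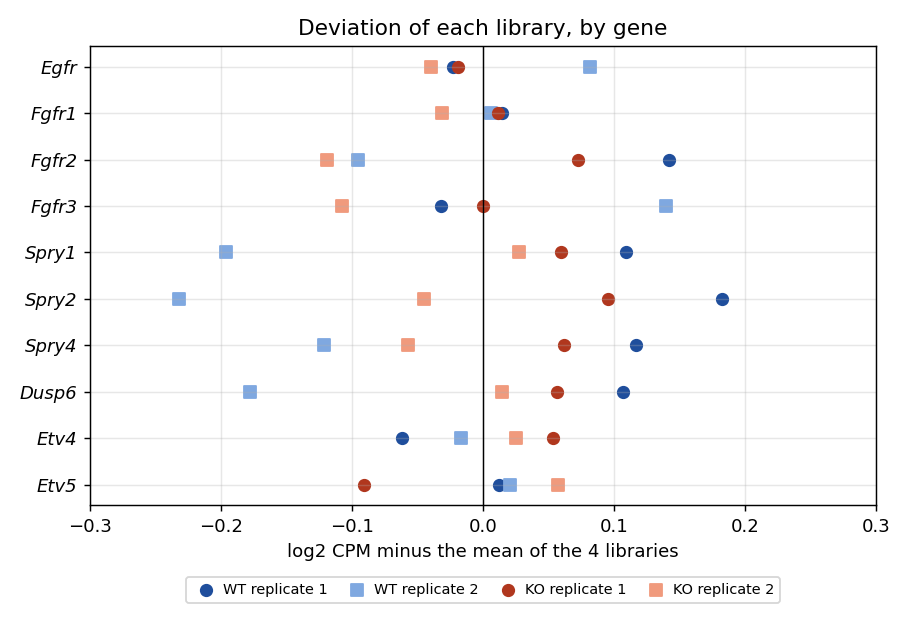
Log2 CPM of each library minus the mean of the 4 libraries, for each gene. For Spry1, Spry2, Spry4 and Dusp6 the order from left to right is the same and WT replicate 2 lies lowest, at -0.23 to -0.12, whereas for Egfr and Fgfr3 it lies highest.

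The rest of the pathway was described through 94 further genes listed by role. Of these 63 were expressed enough to be tested, 0 passed the adjusted threshold in edgeR, and 6 had an unadjusted p under 0.05, where 5.92% of all tested genes did. Their median log2 fold change was -0.01, beside 0.00 over all tested genes. DESeq2 and limma on log2(FPKM + 1) called 0 of them as well.

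Among EGF family ligands 4 of 11 were tested and 0 passed, 3 being positive with a median log2 fold change of 0.28. Hbegf, a membrane-anchored ligand of EGFR, was the most abundant at 17.3 and 17.3 FPKM in WT and 19.7 and 21.9 in KO. Its log2 fold change of 0.26 ± 0.08 had an unadjusted p of 0.00933 but an adjusted p of 0.811 in edgeR. The genotypes did not overlap for Hbegf, Areg and Nrg2, higher in KO, or for Tgfa, lower in KO. Of all tested genes 36.8% had groups that did not overlap in one direction or the other. Areg, which encodes amphiregulin, had 6.56 and 6.14 FPKM in WT and 7.47 and 9.93 in KO (0.45 ± 0.19, edgeR unadjusted p = 0.0392, adjusted p = 0.811). Nrg2, a neuregulin, stood at 1.38 and 1.39 FPKM in WT and 1.91 and 1.49 in KO. Tgfa, which encodes TGF-alpha, was the 1 tested ligand of this list with a negative value, at 1.58 and 1.49 FPKM in WT and 1.32 and 0.993 in KO. The log2 fold change of Tgfa, -0.41 ± 0.19, had an unadjusted p of 0.0576 and an adjusted p of 0.811 in edgeR. Tgfa was named after its values were seen. Egf itself was at 0.27 to 0.37 FPKM and Nrg3 had 0 counts in all libraries.

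Among FGF ligands 4 of 22 were tested, all 4 positive with a median log2 fold change of 0.09 and 0 passing. The most abundant were Fgf11 (24.1 and 14.9 FPKM in WT, 21.8 and 18.6 in KO) and Fgf1 (10.4 and 10.8 in WT, 10.5 and 11.6 in KO). Fgf11, Fgf12 and Fgf14 belong to the FGF homologous factors, which act inside the cell, whereas Fgf1 is a ligand of all FGF receptors. Fgf14 is named only to complete the 4 tested genes. The median of this list therefore rests mostly on genes that are not receptor ligands. Fgf1 itself had a log2 fold change of 0.05 ± 0.09, and its genotypes overlapped. Fgf12 had the smallest p of this list (0.35 ± 0.15, edgeR adjusted p = 0.811). Fgf3, Fgf4, Fgf6 and Fgf15 had 0 counts in all libraries.

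Erbb2, the ligandless partner of EGFR, had 5.56 and 5.52 FPKM in WT and 5.36 and 5.15 in KO. Erbb4, a neuregulin receptor, had 3.11 and 2.33 in WT and 3.07 and 2.31 in KO. Erbb3 and Fgfr4 did not reach the filter, and Fgfrl1, an FGF receptor without a kinase domain, had 19.5 and 17.2 FPKM in WT and 20.0 and 16.8 in KO. None of the 3 tested receptors passed.

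All 23 adaptors and members of the RAS, RAF, MEK and ERK core were tested, with 0 passing, 12 positive and a median log2 fold change of 0.00. Mapk3, which encodes ERK1, was the most abundant at 52.5 and 48.6 FPKM in WT and 51.5 and 51.8 in KO. Map2k1 (MEK1) had a log2 fold change of 0.11 ± 0.08 and Nras of 0.07 ± 0.08. The scaffold gene Ksr1 had the smallest p of the list, at -0.19 ± 0.09 (edgeR adjusted p = 0.813).

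Among other inhibitors of the pathway 14 of 16 were tested, 0 passed and 4 were positive, with a median log2 fold change of -0.02. Lrig1, which promotes turnover of EGFR and restrains stem cell division, reached 107 and 97.0 FPKM in WT and 104 and 97.5 in KO. Spred1, a Sprouty relative, was at 0.02 ± 0.08 in log2 fold change and the nuclear ERK phosphatase gene Dusp4 at -0.01 ± 0.10. Dusp5, another nuclear ERK phosphatase, had the smallest p, at 20.7 and 19.2 FPKM in WT and 23.5 and 23.9 in KO (0.24 ± 0.09, edgeR adjusted p = 0.811). Cbl, a ubiquitin ligase for activated receptors, and Nf1, which encodes a RAS GTPase-activating protein, were lower in KO at an unadjusted p under 0.05 (-0.19 ± 0.09 and -0.20 ± 0.08, edgeR adjusted p = 0.811 for both). These 2 genes were picked out once their values were known.

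Of 17 genes listed as other ERK-responsive genes, 15 were tested, 0 passed and 8 were positive, with a median log2 fold change of 0.06. The list includes Elk1, Elk3 and Elk4, and whether their RNAs follow ERK in these cells was not tested. The cyclin gene Ccnd1 was the most abundant at 247 and 262 FPKM in WT and 249 and 302 in KO. The immediate early genes Fos (-0.07 ± 0.13) and Egr1 (-0.16 ± 0.17) did not pass. Ier3 had the smallest p, at 0.22 ± 0.10 (edgeR adjusted p = 0.811), and Egr2 had 0 counts in all libraries. The immediate early gene Egr3, named after its values were seen, had a log2 fold change of 0.18 ± 0.15 with all libraries (edgeR adjusted p = 0.852). Without WT replicate 1, which leaves 1 WT library, it was 0.48.

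**Figure D4:**
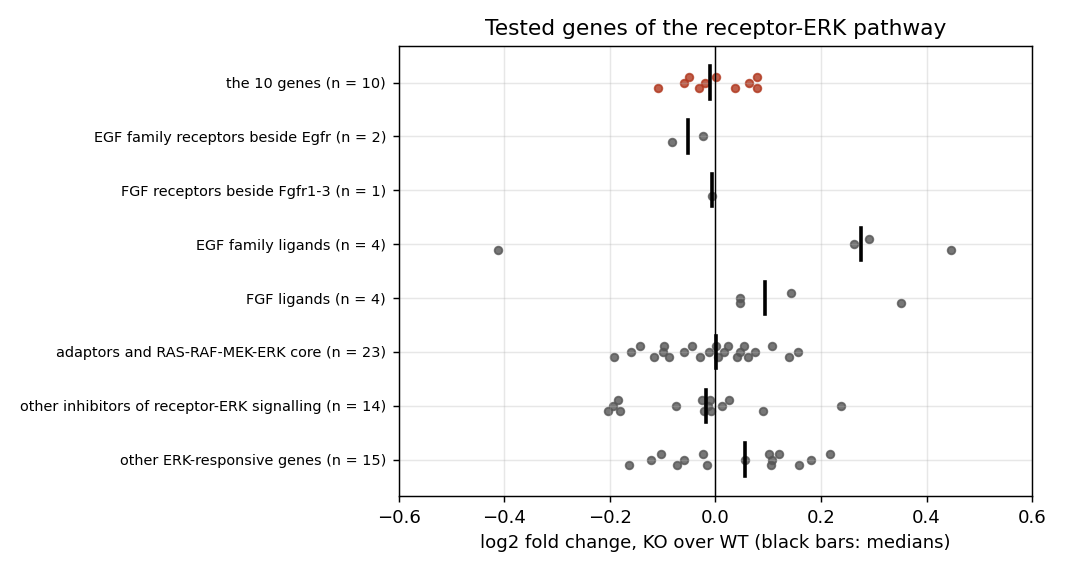
Log2 fold change of KO over WT for the 10 genes (red) and for the 63 tested genes of the pathway lists (grey), with the median of each list as a black bar. The ligand lists have the highest medians, 0.28 and 0.09 from 4 genes each, and no point passed the adjusted threshold. The tested genes of the FGF list are mostly FGF homologous factors, which act inside the cell.

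The authors' deposited table lists log2 fold changes of KO over WT for the 10 genes from -0.10 for Fgfr3 to 0.09 for Spry1. The adjusted p in the authors' deposited table is 1.00 for each of the 10.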

How the data were processed

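The submitters' processing notes name TopHat2 2.1.1, Cufflinks 2.2.1, cutadapt 1.16 and the mm10 build; per the labels' protocols the kit kept no strand and read pairs were 150 bp. Sources used here do not name the tool that counted reads. The authors deposited 1 table with whole-number counts and FPKM per library and gene, gene lengths, and their own comparison (a mean signal per genotype, a log2 fold change, p-values). For all 10 genes the coordinates and lengths equal those of GENCODE M21, with length as the union of exons.

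Counts were tested by quasi-likelihood in edgeR 4.0.16 under R 4.3.3 (TMM scaling, genotype only, mean FPKM of at least 1, two-sided, Benjamini-Hochberg, threshold 0.05). Residual degrees of freedom were 2 and prior ones 8.39. SE is the size of the log2 fold change divided by the square root of F. Deviations use log2 CPM with a prior count of 1. Alternatives were DESeq2 1.42.0, limma 3.58.1 on log2(FPKM + 1) and log2(FPKM + 0.1), other scalings and filters, a replicate block and leaving out each library. The steps were tested on simulated data. The members and lists were chosen with earlier results of these data known. From each list the text names genes past the threshold, the 3 of highest FPKM and the 1 of smallest p. No exact permutation test was used, since 2 against 2 libraries cannot reach 0.05. No gene was named for a pattern like that of a member, since 4 libraries are too few.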

Additional observations from a re-analysis of the deposited data

How the results depend on the processing

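Across 15 alternatives none of the 10 genes passed in any setting, with adjusted p of 0.545 to 1.00. Of 150 log2 fold changes 139 kept their direction and 11 turned. With a mean FPKM of at least 5, Spry4 turned to -0.0103. The other turns came from leaving out 1 library: over such fits Fgfr1 ranged from -0.0401 to 0.000605, Fgfr2 from -0.163 to 0.0745, Spry1 from -0.0656 to 0.240, Spry2 from -0.156 to 0.259, Spry4 from -0.113 to 0.125, Dusp6 from -0.0712 to 0.213 and Etv5 from -0.108 to 0.0426. The median over the 10 genes ranged from -0.0461 to 0.0653 when 1 library was left out, the highest being without WT replicate 1, where 1 of the 10, Spry2, had an unadjusted p under 0.05 in edgeR (0.0495).

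The number of genes called over the whole table was 9. It was 31 without the filter on expression, 4 in limma on log2(FPKM + 1), 3 on log2(FPKM + 0.1), 1 without chromosomes X and Y and 15 to 86 when 1 library was left out. The replicate block gave 24 calls, 0 of them among the 10 genes. The labels do not say whether replicates with the same number share a batch or litter. The deviations of WT replicate 1 and KO replicate 1 from their group means correlated at 0.08 across genes, which are not independent replicates. WT replicate 1 and KO replicate 1 were the closest pair in chi-square per degree of freedom, at 6.05. The WT pair stood at 6.21 and the KO pair at 7.04. With 2 libraries per genotype these values cannot settle whether a batch was shared, which was not tested. With 2 libraries per genotype, the intervals limit what can be seen: a difference inside them was not detectable here.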

Other observations

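The genes listed as other ERK-responsive genes were set beside the Sprouty genes and Dusp6 across libraries, after the pattern in those was seen. Of the 15 tested, 10 were higher in WT replicate 1 than in WT replicate 2, with a median gap of 0.24 in log2 CPM, where 50.2% of all tested genes were higher and the median gap was 0.00. Fos stood at 171 and 134 FPKM in WT and 161 and 130 in KO, and Egr1 at 152 and 117 in WT and 143 and 98.0 in KO, so that both were low in replicate 2 of each genotype. Egr3, another immediate early gene, had 32.9 and 22.6 FPKM in WT and 33.3 and 30.1 in KO. The growth regulator gene Myc had 26.5 and 19.7 in WT and 24.8 and 21.1 in KO. Fosl2, an AP-1 subunit, had 14.6 and 11.0 in WT and 14.2 and 13.4 in KO. In these last 3 genes WT replicate 2 was the lowest library, as in the Sprouty genes. They were named after their values were seen. Over the 15 genes WT replicate 2 was the lowest library for 6, against 23.5% of all tested genes. Ccnd1, Srf, Etv1, Elk3 and Elk1 were the 5 genes that lay the other way, higher in WT replicate 2 than in WT replicate 1.

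Of the 23 adaptors and RAS, RAF, MEK and ERK genes 14 were higher in WT replicate 1, with a median gap of 0.04, and whether that differs from the gap of the Sprouty genes was not tested. The 14 other inhibitors had a median of 0.14, and 13 of them were higher in WT replicate 1. Neural stem cell and radial glia markers lay the other way, 1 of 8 higher in WT replicate 1 with a median gap of -0.05. Astrocyte markers were higher in WT replicate 1 in 4 of 4, with a median of 0.27. The part of these in the Sprouty and Dusp6 values was not tested, and the labels give no batch or date.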
